A study of Saccharomyces cerevisiae with 5 samples.

Results

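Cyclins are the regulatory subunits that switch on the yeast cell cycle kinase Cdc28 at set stages of the division cycle. CLN1, CLN2 and CLN3 are the G1 cyclins, which drive passage through Start, CLB5 and CLB6 are the S phase cyclins, and CLB1 to CLB4 act in mitosis, with CLB3 and CLB4 also active from S phase onward. CLN1, CLN2 and HO are known targets of SBF (Swi4 and Swi6), CLB5 and CLB6 of MBF (Mbp1 and Swi6), and HO, the endonuclease that starts mating-type switching, also needs the SWI/SNF remodeller and Swi5 to be transcribed. Promoters of steadily transcribed yeast genes usually hold a nucleosome-depleted region just upstream of the start site, flanked by a +1 nucleosome downstream of it, whereas regulated promoters are often covered.

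The genes were chosen by their systematic names in the host gene tables of 5 *Saccharomyces cerevisiae* strains. Of 10 listed genes, 9 had a row among the 5264 host genes of each table: the G1 cyclins CLN1 (YMR199W), CLN2 (YPL256C) and CLN3 (YAL040C), the mitotic cyclins CLB1 (YGR108W), CLB3 (YDL155W) and CLB4 (YLR210W), the S phase cyclins CLB5 (YPR120C) and CLB6 (YGR109C), and HO (YDL227C). CLB2 (YPR119W) was not analysed here. All 9 genes passed the filter on low signal in 5 of 5 libraries.

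Strains YAC1, YAC2 and YAC3 carried yeast artificial chromosomes with *Kluyveromyces lactis* DNA, and strains YAC6 and YAC7 carried artificial chromosomes with *Debaryomyces hansenii* DNA. Per the labels, the medium lacked added tryptophan and uracil and held yeast extract, peptone, dextrose and adenine, and no arrest or synchrony of the cell cycle is named. Cell walls were removed with zymolyase, chromatin was cut with micrococcal nuclease, which digests DNA between nucleosomes, and the gel-purified mononucleosomal DNA was sequenced. Each strain gave 1 library, so the 3 and 2 samples of the groups are different strains, and strain, culture and library cannot be told apart.

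For every host gene the deposited tables give nucleosome signal by 10 bp bin, 151 bins in all, with position counted from a listed start site and running from 500 bp before it to 1000 bp after it. The number of reads is unknown. Mean host signal, measured in the smallest step a table contains, lay between 396 (YAC3) and 1739 (YAC1) steps per bin.

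**Figure D1:**
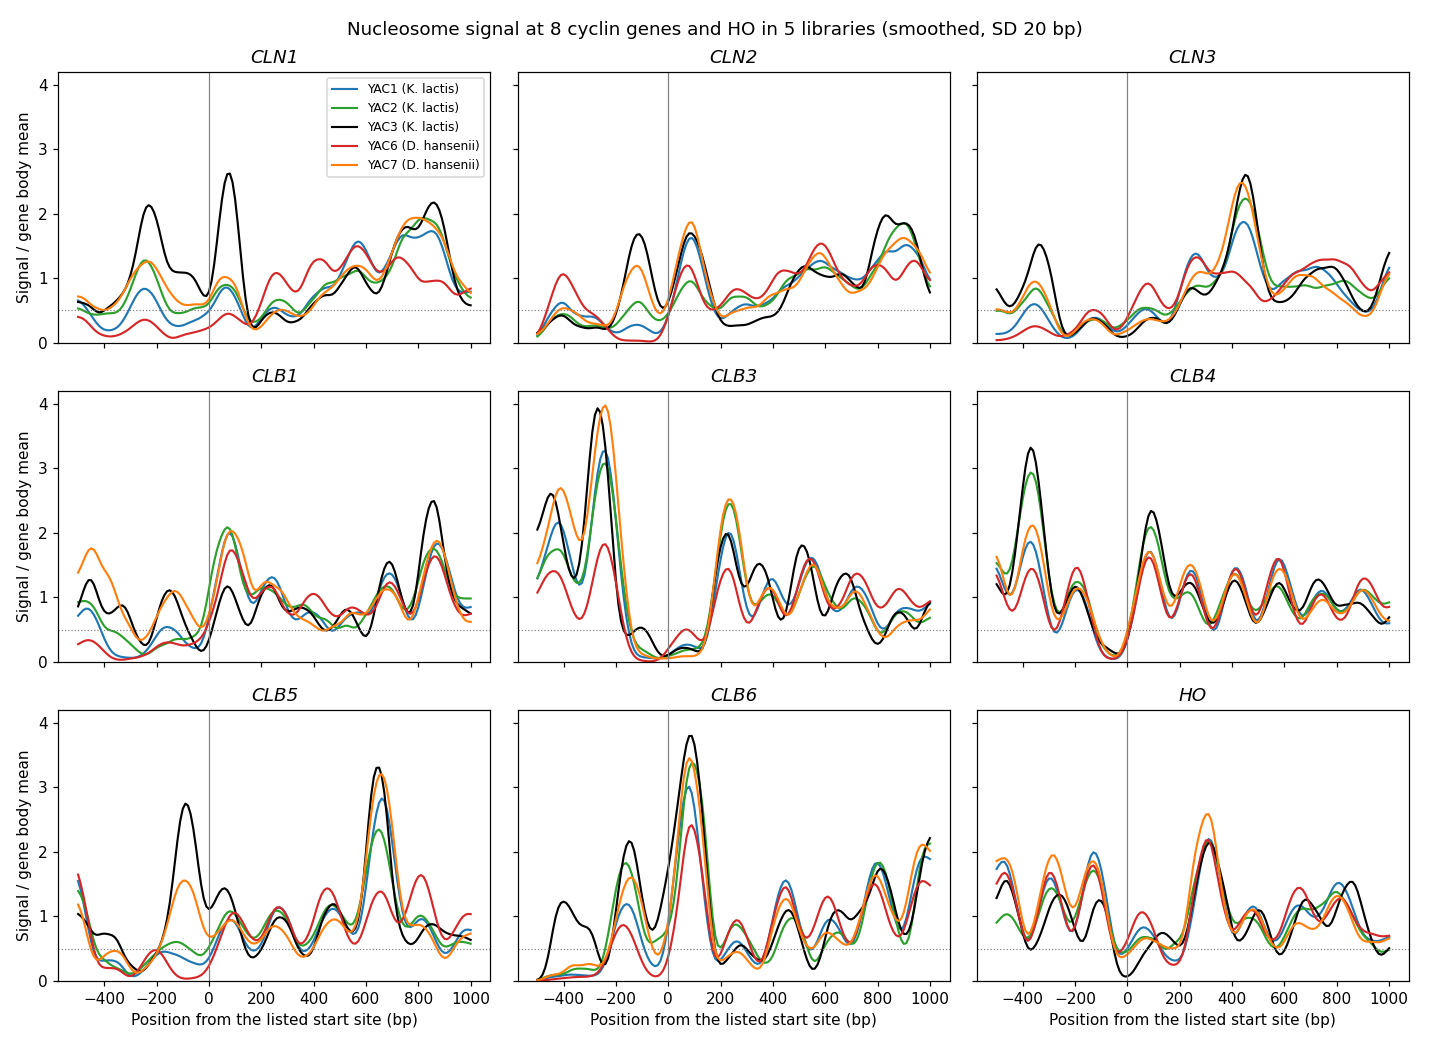
Smoothed signal (y axis, in multiples of the gene's mean from +100 to +1000 bp) against position from the listed start site in bp (x axis), 1 panel per gene and 1 line per library; the dotted line marks 0.5. Close to the start, the depleted region of CLB4 has nearly the same ends in each library, though the lines part at its nucleosome at -370 bp (3.18 in YAC3, 1.39 in YAC6). Those of CLN2 and CLB5 part between YAC3 and YAC6 just upstream of the start.

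CLB4, which acts in S phase and mitosis, had the depleted region that varied least between libraries. Its depleted region was 140, 120 and 130 bp long in YAC1, YAC2 and YAC3, and 130 and 120 bp long in YAC6 and YAC7. Here the depleted region is the longest stretch between -500 and +100 bp in which the signal, smoothed with a Gaussian of SD 20 bp, stays under 0.5 times the gene body mean (+100 to +1000 bp). In 5 of 5 libraries it ended at the listed start. Its median of 130 bp, with an SD of 8.37 bp (n = 5), lay below the median host gene, at 170.0 bp. Nucleosomes stood upstream at -190 and -370 bp and downstream at 90, 240 and 410 bp. The level at -190 bp, as a multiple of the gene body mean, lay between 1.07 and 1.39 in the 5 libraries. The level at -370 bp was more variable, from 1.39 in YAC6 to 3.18 in YAC3.

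The upstream nucleosomes of CLB4 lie over the gene beside it. PNP1, which encodes purine nucleoside phosphorylase, is transcribed away from CLB4, and the mirrored profiles of both genes matched best with listed starts 110 bp apart (median correlation 0.998 over 90 shared bins, a description of the same stretch of DNA). The CLB4 nucleosomes at -190 and -370 bp thus lie at 80 and 260 bp of PNP1. The promoter ratio of PNP1 was -2.57 ± 0.14 (SD, n = 5). CLB4 and PNP1 thus share 1 depleted region.

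CLB3 had a deep depleted region with the strongest upstream nucleosome of the 9 genes by mean level. It measured 260, 250 and 190 bp in YAC1, YAC2 and YAC3, and 230 and 240 bp in YAC6 and YAC7. In 4 of these libraries, all but YAC6, it reached the end of the searched stretch at +100 bp, so those lengths are lower bounds, and the first nucleosome downstream stood at 230 bp. The listed start of CLB3 thus lies inside the depleted region, further from the next nucleosome than in CLB4. Upstream, nucleosomes at -250 and -430 bp had mean levels of 3.04 ± 0.80 and 2.02 ± 0.48 (SD, n = 5). The level at -250 bp was 3.15, 2.97 and 3.53 in YAC1, YAC2 and YAC3, and 1.75 and 3.83 in YAC6 and YAC7, with YAC6 lowest. Its neighbour CMR1 lies upstream on the same strand.

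CLB1, the partner of CLB2 in driving mitosis, had no depleted region of fixed place. Its length was 230, 350 and 100 bp in YAC1, YAC2 and YAC3, and 490 and 70 bp in YAC6 and YAC7. The stretch began at -500 bp in YAC6, at the edge of the data, and at -80 bp in YAC3. A nucleosome at -140 bp had a level of 0.51, 0.33 and 1.04 in YAC1, YAC2 and YAC3, and of 0.29 and 1.06 in YAC6 and YAC7. It was thus near the gene body level in YAC3 and YAC7 and below 0.6 in the other libraries. Signal over the whole CLB1 window was low, between 0.33 and 0.72 times the host median gene. In YAC2 and YAC3 chromosome VII as a whole was low (medians of 0.56 and 0.68), and CLB6, on the same chromosome, stood at 0.36 and 0.43. The part of this low signal in the CLB1 profile was not tested.

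CLN3, the G1 cyclin that acts upstream of the others, had the longest depleted region on average, 366 ± 23.0 bp (SD, n = 5). It was 380, 330 and 370 bp in YAC1, YAC2 and YAC3, and 360 and 390 bp in YAC6 and YAC7. In YAC6 the longest stretch ran from -500 to -150 bp, whereas in the other 4 libraries it began between -320 and -260 bp and ended between 30 and 100 bp. The stretches that touch -500 bp (YAC6) or +100 bp (YAC3 and YAC7) are lower bounds. A weak nucleosome at -130 bp had a level of 0.35 to 0.37 in YAC1, YAC2, YAC3 and YAC7, and of 0.49 in YAC6. Its upstream nucleosome at -350 bp was 0.57, 0.81 and 1.42 in YAC1, YAC2 and YAC3, and 0.25 and 0.92 in YAC6 and YAC7. Downstream, signal near 80 bp stayed below the gene body level in 5 of 5 libraries (0.36 to 0.89), and the highest mean level was that at 440 bp (1.98 ± 0.60). In YAC7 the signal of CLN3 was 1.87 times the host median gene, on a chromosome I whose median was 2.39.

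CLN2, a main G1 cyclin and SBF target, differed most between libraries at a nucleosome 120 bp upstream. At -120 bp its level was 0.27, 0.61 and 1.62 in YAC1, YAC2 and YAC3, and 0.0315 and 1.16 in YAC6 and YAC7. The site was thus nearly empty in YAC6 and above the gene body level in YAC3 and YAC7. Signal averages over cells, so a site filled in a share of cells and a site partly protected in every cell cannot be told apart. A weaker nucleosome at -400 bp was 0.59, 0.43 and 0.40 in YAC1, YAC2 and YAC3, and 1.03 and 0.52 in YAC6 and YAC7. There YAC6 was the highest library and YAC3 the lowest, the reverse of -120 bp. The +1 nucleosome at 80 bp ran from 0.93 in YAC2 to 1.80 in YAC7. Where the site was lowest, in YAC1 and YAC6, the longest depleted stretch ended at the start (370 and 310 bp). In YAC2, YAC3 and YAC7 it ended at -160 to -200 bp (350, 310 and 170 bp), upstream of the site, which had more signal there.

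The far end of the CLN2 window is the promoter of another gene. BBP1, which encodes a spindle pole body component, is transcribed away from CLN2, with the mirrored profiles matching best at starts 600 bp apart (median correlation 0.999 over 41 shared bins). The CLN2 position -500 bp lies at -100 bp of BBP1, so stretches that reach -500 bp, as in YAC2 and YAC3, run into the depleted region of BBP1. The promoter ratio of BBP1 was -3.26, -3.03 and -2.54 in YAC1, YAC2 and YAC3, and -2.94 and -2.66 in YAC6 and YAC7. Its spread of 0.29 (SD, n = 5) compares with 1.49 for CLN2 on the other side of the same intergenic stretch.

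CLN1, the other main G1 cyclin, had the depleted stretch that varied most in length between libraries. Its depleted stretch was 190, 140 and 30 bp in YAC1, YAC2 and YAC3, and 610 and 0 bp in YAC6 and YAC7. In YAC6 all 610 bp searched lay under the limit, and in YAC7 no bin did. Both margins were narrow. The highest signal searched in YAC6 was 0.45 and the lowest in YAC7 was 0.51, against a limit of 0.5. The search ends at +100 bp, and just past it signal fell to between 0.21 (YAC7) and 0.32 (YAC2) in every library. A short or absent stretch here thus does not mean that the gene lacked low signal around its start. Nucleosomes stood at -240 and 70 bp. The level at -240 bp was 0.81, 1.24 and 2.03 in YAC1, YAC2 and YAC3, and 0.34 and 1.24 in YAC6 and YAC7. That at 70 bp was 0.83, 0.88 and 2.49 in YAC1, YAC2 and YAC3, and 0.43 and 1.00 in YAC6 and YAC7. Both were highest in YAC3 and lowest in YAC6. Across bins, the profile of CLN1 correlated between library pairs with a median of 0.73, and with 0.00132 in the least alike pair, against a median of 0.87 over host genes.

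CLB5, the main S phase cyclin, showed the widest range. A nucleosome at -90 bp had a level of 0.34, 0.54 and 2.64 in YAC1, YAC2 and YAC3, and of 0.0403 and 1.52 in YAC6 and YAC7. The site was close to empty in YAC6 and above the gene body level in YAC3 and YAC7. The depleted stretch was 460 bp in YAC1 and 460 bp in YAC6, reaching past the start to 10 and 20 bp. It was 240, 140 and 260 bp in YAC2, YAC3 and YAC7, where it ended at -190 to -200 bp. The +1 nucleosome at 80 bp lay between 0.92 and 1.30 in the 5 libraries.

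CLB6, the other S phase cyclin, kept an upstream nucleosome in 5 of 5 libraries. At -150 bp its level was 1.14, 1.72 and 2.07 in YAC1, YAC2 and YAC3, and 0.76 and 1.55 in YAC6 and YAC7. The +1 nucleosome at 80 bp was the strongest of the 9 genes, at 3.06 ± 0.53 (SD, n = 5). The longest depleted stretch lay beyond the upstream nucleosome, from -500 bp to -230 or -250 bp in 4 libraries (260 to 280 bp, lower bounds since they begin at the edge of the data). In YAC3 it was 50 bp, with a further nucleosome near -380 bp at 1.14, against 0.0506 to 0.20 in the others.

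HO had the shortest depleted region and a row of 3 nucleosomes upstream. The region was 40, 50 and 130 bp in YAC1, YAC2 and YAC3, and 30 and 70 bp in YAC6 and YAC7. Its mean of 64 ± 39.7 bp (SD, n = 5) lay at the 4.78 percentile of host genes. The length depends on where the search ends, at +100 bp. Between there and 310 bp, signal fell to 0.31 in YAC1 and 0.25 in YAC6. That is lower than inside the region counted in these libraries (0.42 and 0.45). In YAC2, YAC3 and YAC7 it fell to 0.50, 0.55 and 0.50. Nucleosomes stood at -130, -290 and -470 bp with mean levels of 1.63 ± 0.33, 1.52 ± 0.26 and 1.56 ± 0.34. At -130 bp the level was 1.92, 1.66 and 1.07 in YAC1, YAC2 and YAC3, and 1.72 and 1.80 in YAC6 and YAC7. YAC3, the highest library at CLN1, CLN2 and CLB5, was thus the lowest at HO. The known upstream control region of HO is longer than the stretch measured. Downstream, the site at 70 bp was weak (0.72 ± 0.20) and the first strong nucleosome stood at 310 bp (2.18 ± 0.18).

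**Figure D2:**
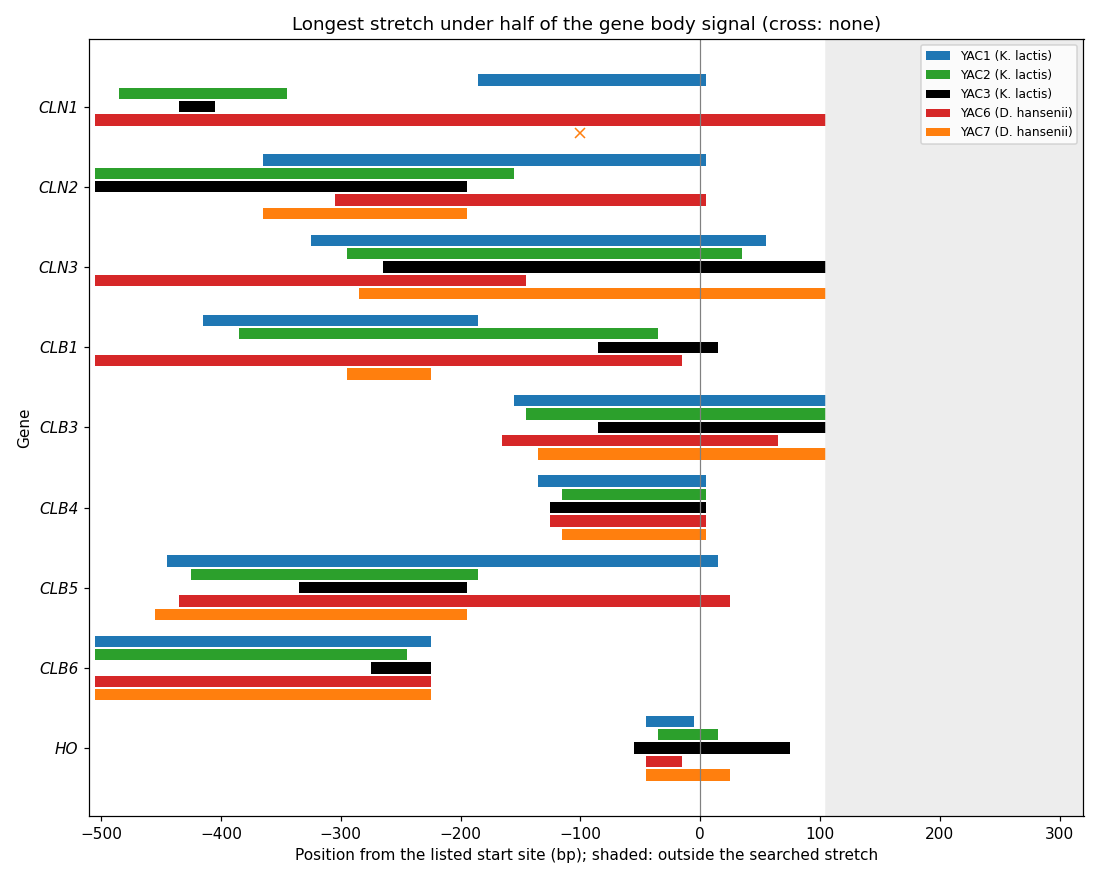
Each bar spans the longest stretch under 0.5 times the gene body signal, by position from the listed start site in bp (x axis), for each gene (y axis) and library (colour; the cross marks a library with none). The bars of CLB4 lie over each other, while those of CLN2 and CLB5 end near the start in YAC1 and YAC6 and near -200 bp in YAC2, YAC3 and YAC7.

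On average, G1 cyclins had longer depleted regions than mitotic cyclins at the limit of 0.5, and more signal near the start relative to the gene body. Depleted regions averaged 287 bp over CLN1, CLN2 and CLN3 and 203 bp over CLB1, CLB3 and CLB4. By gene the classes overlapped. CLN1 averaged 194 bp, below CLB1 (248 bp) and CLB3 (234 bp), with CLN2 at 302, CLN3 at 366 and CLB4 at 128 bp. The 610 bp of CLN1 in YAC6 raised its mean, and its median was 140 bp. The longest stretch can lie away from the start, as for CLN1 in YAC2 (-480 to -350 bp) and YAC3 (-430 to -410 bp). This also held for CLN2, CLN3 and CLB1 in some libraries. The G1 mean was larger by 103.3, 33.3 and 96.7 bp in YAC1, YAC2 and YAC3, and by 143.3 and 43.3 bp in YAC6 and YAC7, a mean of 84 ± 45.5 bp (SD, n = 5 libraries). Many of these lengths are cut at an edge of the searched stretch, in both classes, so the difference is neither a measured length nor a bound. It also depends on how depletion is defined. At 0.35 times the gene body mean the difference was -13.3 ± 39.4 bp, above 0 in 2 of 5 libraries, and at 0.65 it was 138 bp. With the stretch nearest to the start in place of the longest it was 44 ± 86.8 bp, above 0 in 3 of 5 libraries. Without CLN3, a setting added after the data were seen, it was 44.7 ± 87.3 bp. The libraries share these genes, and genes of a class are not replicates, so no test was made.

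The promoter ratio looks at the stretch nearest the start. On the log2 scale, it sets signal at -120 to -20 bp against signal at +100 to +500 bp, both averaged and with 0.1 times the gene mean added. Lower values mean deeper depletion, and strong depletion is understated. The host median differed between libraries, at -2.28, -1.76 and -1.74 in YAC1, YAC2 and YAC3, and at -2.28 and -1.89 in YAC6 and YAC7. G1 cyclins averaged -1.05 and mitotic cyclins -1.95, and the difference was 0.90 ± 0.37 (SD, n = 5), above 0 in 5 of 5 libraries. By library it was 0.93, 1.05 and 1.21 in YAC1, YAC2 and YAC3, and 0.26 and 1.03 in YAC6 and YAC7. Without CLN3 it was 1.30 ± 0.87, above 0 in 4 of 5 libraries, and a pseudocount of 0.5 gave 0.44. A body window to +1000 bp gave 0.59, and a promoter window from -150 to 0 bp gave 0.63 ± 0.39, above 0 in 4 of 5 libraries. The ratio rises where the stretch from +100 to +500 bp is itself low. In YAC7 the promoter of CLN1 stood at 0.59 times the mean from +100 to +1000 bp, and that of CLN2 at 0.78. Their ratios there were still above 0, at 0.13 and 0.06. The G1 class was itself mixed, with CLN3 at -1.86 ± 0.31, CLN2 at -0.84 ± 1.49 and CLN1 at -0.45 ± 1.05. The mitotic class ran from CLB3 at -2.50 ± 0.65 and CLB4 at -2.28 ± 0.30 to CLB1 at -1.06 ± 0.52.

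Further upstream, the mitotic class on average held more nucleosome signal than the G1 class, though single genes overlapped. The upstream ratio, built like the promoter ratio but over -500 to -150 bp, averaged -0.73 for G1 and 0.07 for mitotic cyclins. The difference was -0.81 ± 0.12 (SD, n = 5), below 0 in 5 of 5 libraries, from -0.91 in YAC6 to -0.62 in YAC3. CLB3 (0.72 ± 0.25) and CLB4 (0.31 ± 0.22) were the highest of the 9 genes, while CLB1 stood at -0.81 ± 0.89. Of the G1 cyclins, CLN1 stood at -0.07 ± 0.97, above CLB1, with CLN2 at -0.77 ± 0.17 and CLN3 at -1.36 ± 0.55. For CLB4 this window holds nucleosomes of PNP1, and for CLN2 it runs into the depleted region of BBP1. Without CLB1 the difference was -1.25, and without CLN3 it was -0.50. CLB5 (-0.72 ± 0.29) and CLB6 (-0.99 ± 0.60) lay near the G1 class, and HO stood at 0.10 ± 0.19.

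**Figure D3:**
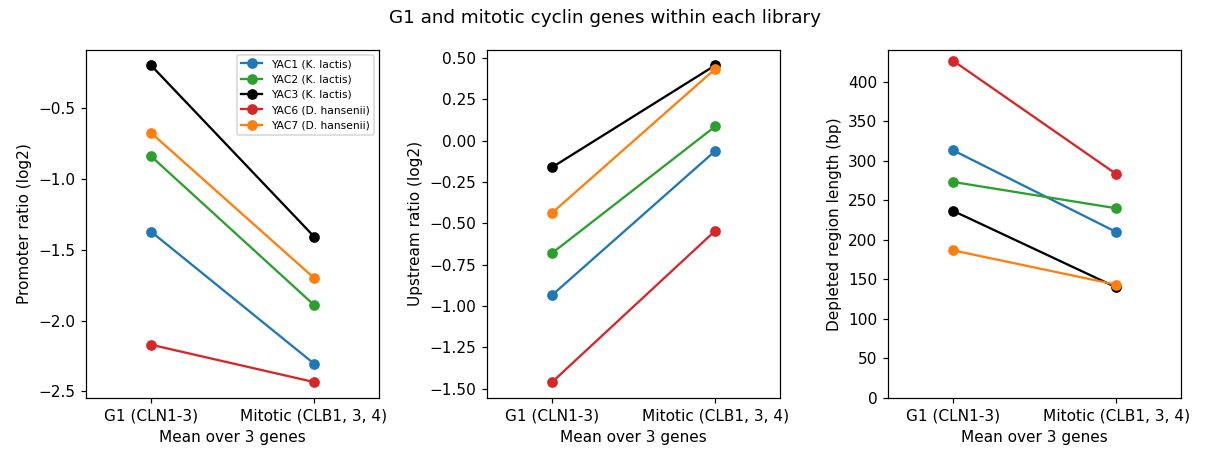
Mean over 3 genes (points) for G1 cyclins (left) and mitotic cyclins (right) in each library, 1 line per library, for the promoter ratio (log2), the upstream ratio (log2) and the depleted region length in bp. In 5 of 5 libraries the promoter ratio and the length are higher, and the upstream ratio lower, for G1 than for mitotic cyclins.

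Against all 5252 host genes that passed the filter in every library, 7 of the 9 promoters were shallower than the median gene at -1.97. HO was the shallowest, at -0.21 ± 0.19 (SD, n = 5), the 93.01 percentile. It was followed by CLN1, CLB5 (-0.54 ± 1.83), CLB6 (-0.69 ± 0.88), CLN2, CLB1 and CLN3, the last close to the median at the 54.9 percentile. CLB4 and CLB3 were deeper than the median. HO and CLN1, and likewise CLN1, CLB5, CLB6 and CLN2, differ by less than their spread between libraries. The order also depends on the body window. With a window to +1000 bp, CLB6 was at -0.81, CLB5 at -0.82, CLN1 at -1.06, CLB1 at -1.18 and CLN2 at -1.27. In YAC6 alone, CLN2 and CLB5 lay at the 19.0 and 13.8 percentiles, deeper than most host genes.

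**Figure D4:**
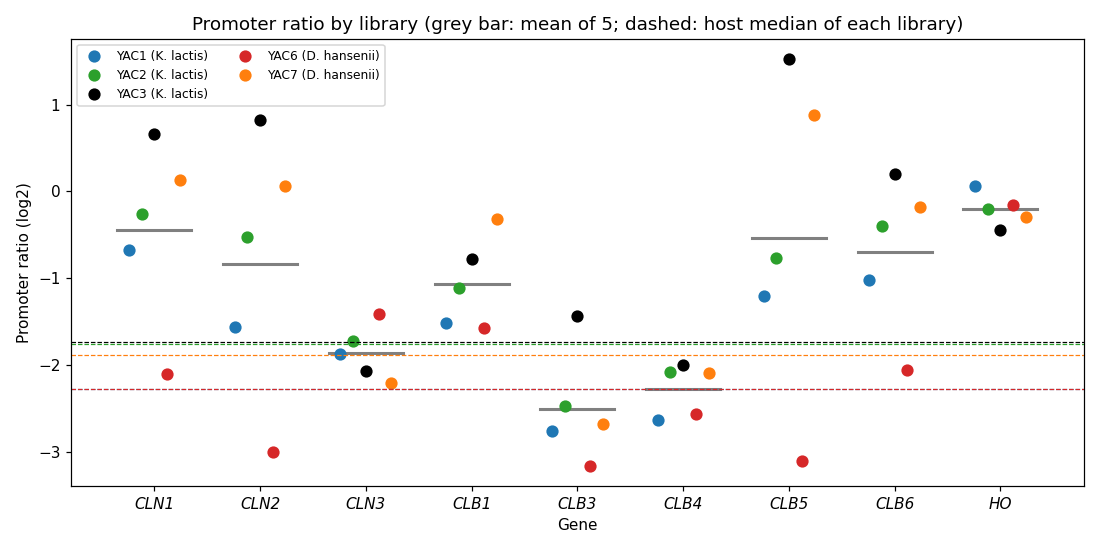
Promoter ratio (y axis, log2; lower means deeper depletion) of each gene (x axis), 1 point per library, with the mean of 5 as a grey bar and the host median of each library as a dashed line. CLB5 runs from -3.11 in YAC6 to 1.52 in YAC3, while HO stays between -0.45 and 0.06.

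The spread between libraries set CLB5, CLN2 and CLN1 apart from most host genes. The SD of the promoter ratio over 5 libraries was 1.83 for CLB5, 1.49 for CLN2 and 1.05 for CLN1, at the 99.8, 99.2 and 96.1 percentiles of host genes, whose median SD was 0.36. CLB6 followed with 0.88 (93.9 percentile). At the other end were CLN3 (0.31), CLB4 (0.30) and HO (0.19). After each library was centred on its host median, a setting added with the values known, CLB4 had an SD of 0.0559, at the 0.228 percentile, while CLB5 and CLN2 kept 1.63 and 1.26. In the same setting HO had an SD of 0.43 (67.6 percentile) and CLN3 one of 0.51 (78.1 percentile). The low spread of HO thus did not hold there, and CLN3 moved above the median host gene. CLN1 had 0.84 (94.9 percentile). Without YAC6 the SD of CLN1 was 0.57 (83.9 percentile) and that of CLB6 0.51 (78.96 percentile), while CLB5 and CLN2 stayed above the 97 percentile at 1.31 and 1.01.

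**Figure D5:**
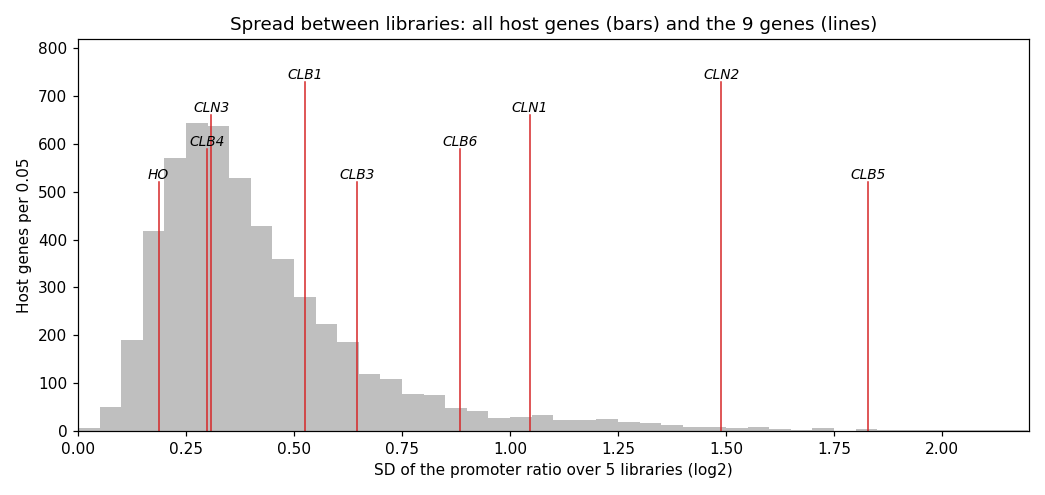
Number of host genes (y axis) by the SD of the promoter ratio over 5 libraries (x axis, log2, bins of 0.05), with the 9 genes as red lines. CLB5, CLN2 and CLN1 lie in the right tail, with SDs of 1.83, 1.49 and 1.05.

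The libraries came in the same order at CLN1, CLN2, CLB5 and CLB6. From lowest to highest promoter ratio this order was YAC6, YAC1, YAC2, YAC7, YAC3. At CLN2 the ratios were -1.56, -0.53 and 0.82 in YAC1, YAC2 and YAC3, and -3.002 and 0.06 in YAC6 and YAC7. At CLB5 they were -1.21, -0.77 and 1.52 in YAC1, YAC2 and YAC3, and -3.11 and 0.88 in YAC6 and YAC7. At CLN1 they were -0.68, -0.26 and 0.66 in YAC1, YAC2 and YAC3, and -2.10 and 0.13 in YAC6 and YAC7, and at CLB6 -1.02, -0.40 and 0.20 in YAC1, YAC2 and YAC3, and -2.06 and -0.18 in YAC6 and YAC7. The order was read off these genes after their values were seen, and 12.0% of host genes share it, against 4 of 9 here. With centred libraries it held for CLN2 and CLB6, and 6.95% of host genes shared it. The difference of YAC3 minus YAC6 was 4.63 at CLB5, 3.82 at CLN2, 2.76 at CLN1 and 2.26 at CLB6, against a host median of 0.33, and it was -0.29 at HO and -0.65 at CLN3. Steps per bin fall from YAC1 and YAC6 to YAC7, YAC2 and YAC3, and the host median promoter is shallower in those last 3 libraries. The part of depth and digestion in this order was not tested.

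None of the 9 genes was called between strains with *K. lactis* DNA and strains with *D. hansenii* DNA by limma, a linear model over all host genes (adjusted p under 0.05, Benjamini-Hochberg). Called host genes made up 0.0% of 5252 for the promoter ratio, 0.0% for the upstream ratio and 0.0% for the depleted length. Unadjusted p-values under 0.05 were reached by 7, 11 and 32 host genes (0.133%, 0.209% and 0.609%), none of them a cyclin gene or HO. Even with no difference, a share near 0.05 of all genes would be reached. The counts lie far below it, so they do not show that the strain groups are alike. For CLN2 the promoter ratio averaged -0.42 in *K. lactis* strains and -1.47 in *D. hansenii* strains, a difference of 1.05 ± 0.90 (SE, limma adjusted p = 1.0). For CLB5 it averaged -0.15 in *K. lactis* strains and -1.11 in *D. hansenii* strains, a difference of 0.96 ± 1.12 (SE, limma adjusted p = 1.0). For CLB4 it averaged -2.24 in *K. lactis* strains and -2.33 in *D. hansenii* strains, a difference of 0.09 ± 0.38 (SE, limma adjusted p = 1.0). The strain groups overlapped at 9 of 9 genes for each measure, and they did not overlap at 7.48%, 8.83% and 5.94% of host genes. Equal values counted as overlap. In depleted length, CLN2 (310 bp in YAC3 and YAC6) and CLB6 (280 bp in YAC1, YAC6 and YAC7) met only at such ties. In promoter ratio at CLN2 and CLB5, YAC6 was the lowest library and YAC7 the next to highest, although both carry *D. hansenii* DNA.

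Other regulators of the cell cycle had promoters near the host median. Of 32 listed genes 30 had a row, and CDC5 and ASH1 were not analysed here. Their median promoter ratio was -2.02 against -1.97 over all host genes, with 16 of 30 deeper than the host median. Their median depleted length was 190 bp against 170.0 bp. FKH1, a forkhead factor, and NDD1, a coactivator of mitotic genes, were deepest, at -3.56 ± 0.20 and -3.10 ± 0.32 (SD, n = 5). FAR1, the Cln-Cdc28 inhibitor of the pheromone response, and PHO85, a cyclin-dependent kinase, were shallowest, at -0.39 ± 0.45 and -0.70 ± 0.50. The median SD between libraries was 0.48 against 0.36 over host genes. An SD above the 95 percentile of host genes was reached by 3 of 30, chosen for naming after their values were seen. These were YOX1, a repressor of M/G1 genes (1.34), and the G1 cyclins of the Pho85 kinase PCL2 (0.97) and PCL1 (0.97). The library order described above was shown by 5 of 30 (16.7%).

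Mean profiles of the 9 genes ranged from alike to opposed. Over 151 bins, CLN1 and CLN2 correlated at 0.67, CLN2 and CLB1 at 0.66, and CLN2 and CLB6 at 0.61. These lie above the 95 percentile of each gene's correlations with host genes, which was 0.57 for CLN1, 0.58 for CLN2, 0.59 for CLB1 and 0.52 for CLB6. They are the highest of all pairs among the 9 genes, named with their values known. With that many pairs, some would pass such a percentile by chance. CLB3 and CLB4 correlated at 0.27, CLB5 and CLB6 at 0.17, and CLB3 and CLB6 at -0.60. The host genes with the profile most like each, outside the 9, were UTP7 for CLN1 (correlation 0.85), BUD22 for CLN2 (0.82), RNR1, the large subunit of ribonucleotide reductase, for CLN3 (0.88), MDJ2 for CLB1 (0.83), ILS1 for CLB3 (0.90), SCC2 for CLB4 (0.90), SDH9 for CLB5 (0.74), YMR206W for CLB6 (0.83) and ASM4 for HO (0.78). These are the best of 5252 genes each and share the fixed layout of depleted region and arrays.

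CLB1 and CLB6 are neighbours on chromosome VII, and CLB2 and CLB5 on chromosome XVI. By their systematic names the genes of each pair are transcribed towards each other, so their promoters lie on the outer sides of the pair. CLB1 and CLB6 had mean promoter ratios of -1.06 and -0.69, and their mean profiles correlated at 0.51.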

How the data were processed

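Mononucleosomal DNA of 5 strains was measured, 1 library each. The submitters' processing notes name CASAVA 1.7.0. Aligner, genome build, read extension and start sites: not given in the sources used here. The deposited values are nucleosome signal, per the file headers by position from a start, with every value a whole multiple of the smallest step (100%, tolerance 0.02 steps). In 214 names a suffix letter, misplaced in the direction column, was restored. The R64 gene table gave symbols and neighbours (5261 of 5264 identifiers matched).

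The filter kept genes whose mean signal reached 10% of the library median. Profiles were divided by the mean from +100 to +1000 bp and smoothed (Gaussian, SD 20 bp). Nucleosomes are peaks of the mean of 5 profiles (prominence 0.1, at least 100 bp apart), and levels are means within 20 bp of them. The measures were compared between strain groups with limma 3.58.1 (trend, threshold 0.05, two-sided) in R 4.3.3. In simulated promoter ratios of 5252 genes with a log2 shift of 3 in 200 of them, it recovered 88.5%. The simulated noise was independent between genes, without the library shifts that real genes share. The shift of 3 also exceeds the largest group difference in promoter ratio among the 9 genes (1.05, CLN2). The share recovered thus does not tell how often differences of that size would be called. The design planned CLB1 to CLB4 as the mitotic class, of which CLB1, CLB3 and CLB4 had values. Percentiles rank a gene's value among host genes and carry no test. By rule, named genes are the 9 members, the most alike profile of each, and the 2 lowest and 2 highest of the wider list. Outside this rule, YOX1, PCL1 and PCL2 and the neighbours PNP1, BBP1 and CMR1 were named with values known. The members and lists were chosen with earlier results of these data known. Alternatives were other windows, pseudocounts, limits, smoothing, filters, class definitions and leaving out each library. Insert tables were not used. The p-values set the difference between strain groups against the spread within them, in which strain, culture and library cannot be told apart. Each strain gave 1 library.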

Additional observations from a re-analysis of the deposited data

Results flagged for a closer look

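Of 27 values checked over 5 libraries (3 measures of 9 genes), 1 library stood apart at 1 of them. The depleted region of CLB6 was 50.0 bp in YAC3, against 260.0 to 280.0 bp in the other 4 libraries, a gap of 0.913 of the whole range. Those 4 stretches begin at the edge of the data, which limits their length, so their closeness is partly set by the window. The limit used marks about 1 in 20 groups by chance, so with 27 values about 1 such mark would arise by chance.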

How the results depend on the processing

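No gene was called between strain groups for any of the 3 measures under any of the 11 settings of each, leave-one-out included (where 1 strain is left, it is assumed to vary like the others). Unadjusted limma p-values under 0.05 numbered 2 to 405 genes for the promoter ratio, 0 to 859 for the upstream ratio and 22 to 387 for the depleted length, the highest counts all without YAC7. The G1 minus mitotic difference in promoter ratio kept its sign in the mean under 13 alternatives. It was 0.44 with a pseudocount of 0.5, 0.59 with a body window to +1000 bp, 0.63 with a promoter window from -150 to 0 bp (above 0 in 4 of 5 libraries), 1.47 with class medians, 1.34 without CLB1, 1.30 without CLN3, and 0.82 to 1.06 without each library. The difference in upstream ratio also kept its sign. It was -0.58 with a pseudocount of 0.5, -1.12 with a body window to +1000 bp, -1.29 with class medians, -1.25 without CLB1, -0.50 without CLN3, and -0.86 to -0.78 without each library. Centring and leaving out 1 library could not change the sign of the difference in either ratio. Centring shifts both classes alike, and each difference had the same sign in 5 of 5 libraries. The difference in depleted length was -13.3 bp at a limit of 0.35, 138 bp at 0.65, 44 bp with the stretch nearest to the start (above 0 in 3 of 5), 44.7 bp without CLN3, and 69.2 to 96.7 bp without each library. The cause was not tested. Leaving out CLB1 or CLN3 and centring were chosen after the data were seen. No paired analysis was possible because the labels give no replicate numbers that tie strains of one group to the other. Depth, known only in steps, limits YAC3 most.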
